A study of Mus musculus with 2 samples.

Results

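The insulin-like growth factor (IGF) family was read on 2 one-colour expression arrays, 1 of a neurosphere sample and 1 of a VZ/SVZ sample of mouse brain. Its members are the ligand genes Igf1 and Igf2, the receptor genes Igf1r and Igf2r, and the binding protein genes Igfbp2, Igfbp3, Igfbp4, Igfbp5, Igfbp6 and Igfbp7. They were taken by name: every non-control probe whose gene name in both scanner files equals a member, which gave 19 probes of 10 genes among 37006 named genes. VZ/SVZ is the germinal layer along the lateral ventricles, and a neurosphere is a floating cluster of cells grown from neural stem and progenitor cells. Per the labels, both RNA samples came from the brain of C57BL/6 mice aged 6 months, heterozygous for Ecrg4 and positive for beta-gal, an enzyme often used as a reporter; what drives it here is not stated. Both groups therefore carry the Ecrg4 allele, and no wild-type sample was analysed here. The growth protocol places the cells of both samples in DMEM/F12 medium with bFGF, EGF and heparin, so neither array is labelled as uncultured tissue. How many animals gave each sample, and the days in culture, are not stated in the labels.

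IGF1 and IGF2 are small secreted proteins related to insulin. Both act through the IGF1 receptor, a tyrosine kinase that signals to growth and survival pathways, whereas the IGF2 receptor, also the cation-independent mannose 6-phosphate receptor, takes IGF2 into the cell for breakdown. The binding proteins hold IGFs outside the cell and can either block or prolong their action, and proteases release the ligand from them. In the brain, IGF2 is known as a product of the choroid plexus, meninges and vessels and as a factor for neural stem cells, and IGF1 is made by neurons, glia and microglia.

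Each group had 1 array, so there were no replicates, no test was made and no p-value is given. The level of a probe is log2 of its background-subtracted signal minus the 75th percentile of its array, and each difference is the VZ/SVZ level minus the neurosphere level. The error after ± is the technical error of the scanner's error model; it leaves out the spread between animals, cultures and labellings. A probe that the scanner software marked as not well above background is called dim. A gene dim on 1 array has only a bound, written "at least" except for Igfbp6, as given below. Of the 19 probes, 13 were well above background on both arrays, 4 in VZ/SVZ only, none in the neurosphere only and 2 on neither. In bulk RNA, fewer cells of a type and less RNA per cell cannot be told apart.

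Of the 10 members, 6 reached 2-fold towards VZ/SVZ (Igf1, Igf2, Igf2r, Igfbp5, Igfbp6 and Igfbp7). Igfbp2 alone reached it towards the neurosphere, and 3 lay within 2-fold (Igf1r, Igfbp3 and Igfbp4). The background shares over 26434 measured genes were 18.7% towards VZ/SVZ, 11.1% towards the neurosphere and 29.7% in either direction. The family's median difference was 1.64, and that of all genes 0.04. Of the 8 members bright on both arrays, 4 reached 2-fold towards VZ/SVZ and 1 towards the neurosphere, beside shares of 14.4% and 11.6% among 21907 such genes (26% either way). At 4-fold, 4 members remained on the VZ/SVZ side (Igf1, Igf2, Igfbp5 and Igfbp7) and none on the other, where the shares of all genes were 6.51% and 2.36%, or 8.87% together. With a different background correction (normexp), 3 members reached 2-fold towards VZ/SVZ (Igf2r, Igfbp5 and Igfbp7) and Igfbp2 did so towards the neurosphere. Of all genes past 2-fold, the share on the VZ/SVZ side was 62.8%; normexp gave 53.7%, quantile normalization 51.9%, and scaling to the 75th percentile or the median of probes bright on both arrays 71.8% and 61.7%.

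**Figure D1:**
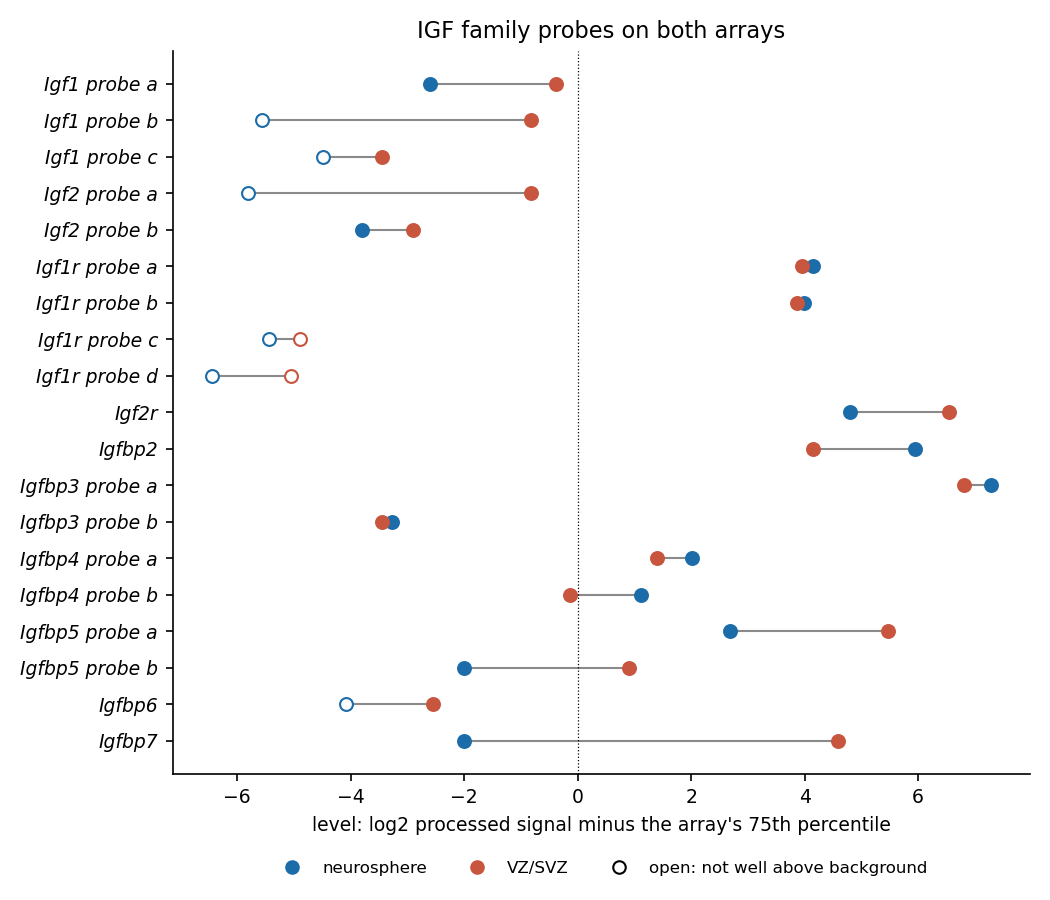
Level of each of the 19 probes on both arrays, as log2 processed signal minus the array's 75th percentile (dotted line at 0); blue points are the neurosphere, red points VZ/SVZ, and open points are not well above background. Lines join the same probe on both arrays, and levels of different probes are not comparable; Igfbp7 has the longest line between filled points, from -2.01 to 4.59.

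The ligand genes were both higher in VZ/SVZ, by probes that differed in how much they showed. The first 30 bases of their 60-base probes are printed because the probes of 1 gene read different stretches of its transcripts and gave different values.
Igf1 probe a: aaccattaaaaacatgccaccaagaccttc
Igf1 probe b: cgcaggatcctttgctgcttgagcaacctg
Igf1 probe c: taaaatagttgagtaaaatttgccactgat
Igf2 probe a: gacagaaactcaaagagtaaattgttataa
Igf2 probe b: atcaaattatgtggtaattctgcaatgtag
The letters run from the brightest to the dimmest probe of a gene, and none of these 5 stretches has capitals because none holds AATAAA, the polyadenylation hexamer searched in all probes.

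Igf1 encodes the ligand that also carries the growth response to growth hormone. Its probe a, at chromosome 10, 87378456 to 87378515 (mm9, plus strand), had a processed signal of 16.3 ± 1.99 in the neurosphere and 81.7 ± 8.27 in VZ/SVZ. Both values are well above background, and the VZ/SVZ sample was the higher one by 4.69-fold (log2 difference 2.23 ± 0.23). Of all genes measured, 5.32% were at least this far towards VZ/SVZ. Probe b, at 87393516 to 87393575, gave a dim 2.11 in the neurosphere and 59.7 ± 6.09 in VZ/SVZ, at least 10.8-fold. Probe c, at 87325382 to 87325441 and designed on a cDNA clone rather than a RefSeq transcript, gave a dim 4.40 and a bright 9.67, at least 1.74-fold. The 3 probes had 1 direction and bounds or differences from 0.80 to 3.43. With normexp the difference of Igf1 was 0.90, under 2-fold.

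Igf2 encodes the fetal growth ligand and is expressed from the paternal allele in most tissues. Its probe a, at chromosome 7, 149837115 to 149837174 (mm9, minus strand), gave a dim 1.78 in the neurosphere and 60.3 ± 6.16 in VZ/SVZ. By this probe, VZ/SVZ exceeded the neurosphere by at least 10.9-fold (bound 3.44). Probe b, at 149839661 to 149839720, was bright on both arrays but weak, with 7.11 ± 1.28 in the neurosphere and 14.1 ± 1.87 in VZ/SVZ. It differed by 1.86-fold (0.90 ± 0.32), short of 2-fold and in the same direction. Whether Igf2 passed 2-fold therefore depended on the probe, and for probe a also on the background correction: with normexp its bound was 0.96. Averaging the bound of probe a with the value of probe b gave 2.17.

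The receptors divided. Igf1r, the signalling receptor, lay within 2-fold: probe a, at chromosome 7, 75371556 to 75371615 (mm9, plus strand), read 1763 ± 176 in the neurosphere and 1635 ± 163 in VZ/SVZ, a difference of -0.20 ± 0.20. Probe b, at 75371371 to 75371430, read 1573 ± 157 and 1547 ± 155, or -0.12 ± 0.20. Neither exceeded its technical error, and with quantile normalization the sign of Igf1r turned, to 0.06. The other 2 Igf1r probes, at 75332515 to 75332574 and 75332796 to 75332855 and both designed on cDNA clones, were dim on both arrays at signals from 1.13 to 3.56.

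Igf2r, which clears IGF2 and sorts lysosomal enzymes, was higher in VZ/SVZ. Its only probe read 2780 ± 278 in the neurosphere and 9946 ± 995 in VZ/SVZ. VZ/SVZ exceeded the neurosphere by 3.35-fold (1.74 ± 0.20), and the difference lay between 1.72 and 1.94 under the 9 processings compared. The scanner files place this probe at chromosome 17, 12875253 to 12875263 (mm9, minus strand), coordinates that cover 11 of its 60 bases. Of all genes, 8.49% were at least as far towards VZ/SVZ.

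The binding proteins held both the largest difference of the family and the only member past 2-fold towards the neurosphere. Of the 6, Igfbp5, Igfbp6 and Igfbp7 stood on the VZ/SVZ side, Igfbp2 on the other, and 2 lay within 2-fold; the median was 0.54. The 30-base starts of the probes for the members that led in each direction are printed here, with AATAAA in capitals.
Igfbp7 probe: taacccactaacactttattacagccagct
Igfbp5 probe a: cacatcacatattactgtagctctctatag
Igfbp5 probe b: tttagcattttggtacttaaggaAATAAAa
Igfbp6 probe: ctgtcacccttgggcctttacacagctagt
Igfbp2 probe: catctcttctacaacgagcagcaggagact
The hexamer AATAAA starts at base 24 of Igfbp5 probe b and stood on the printed strand of 1 of the 19 family probes and of 9.77% of all 56599 probes; on the other strand it stood in 1 family probe (Igfbp7) and 3.85% of all.

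Igfbp7 encodes a secreted protein that binds IGFs weakly and is known from vessel walls and senescent cells. Its probe, at chromosome 5, 77778355 to 77778414 (mm9, minus strand), read 24.8 ± 2.70 in the neurosphere and 2552 ± 255 in VZ/SVZ. Both values were well above background, and VZ/SVZ was 96.5-fold higher (6.59 ± 0.21), with 40 of the 26434 genes (0.151%) at least as far in that direction. With normexp the difference was 5.04, since the weak neurosphere signal became 81.3 on that scale, offset included. This value rests on 1 probe.

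Igfbp5, which binds IGFs and the extracellular matrix, was also higher in VZ/SVZ, and here 2 probes of different brightness gave nearly the same difference. Probe a, at chromosome 1, 72904829 to 72904888 (mm9, minus strand), read 636 ± 63.6 in the neurosphere and 4695 ± 469 in VZ/SVZ, 6.92-fold (2.79 ± 0.20). Probe b, at 72904506 to 72904552, coordinates for 47 of its 60 bases, read 24.9 ± 2.70 and 198 ± 19.8, 7.44-fold (2.90 ± 0.21). The gap between the probes was 0.11, less than the technical error of either; with normexp they parted, at 2.75 for probe a and 1.67 for the weaker probe b. Of all genes, 3.38% were at least as far towards VZ/SVZ, and across the 9 processings the difference by the gene's value lay between 2.75 and 3.02.

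Igfbp6, a binding protein that prefers IGF2, was weak. Its probe, at chromosome 15, 101979852 to 101979911 (mm9, plus strand), gave a dim 5.84 in the neurosphere and 18.2 ± 2.34 in VZ/SVZ, 2.92-fold by these readings (1.54 ± 0.38). The dim 5.84 is above the lowest signal well above background there, 5.20. The bound therefore equals the ratio of the readings and carries their error. Igfbp6 is the member nearest to the 2-fold line among those past it. With normexp its bound was 0.19, so the call did not hold there.

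Igfbp2, a binding protein of developing brain and of neural progenitors, had the opposite direction. Its probe, at chromosome 1, 72898677 to 72898736 (mm9, plus strand), read 6146 ± 615 in the neurosphere and 1883 ± 188 in VZ/SVZ. It was 3.48-fold higher in the neurosphere (-1.80 ± 0.20), and the difference lay between -1.82 and -1.53 under the 9 processings. As for Igf2r, some of these cannot change a value from 1 bright probe. Of all genes, 3.2% were at least as far towards the neurosphere.

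Igfbp3 and Igfbp4 lay within 2-fold by their brightest probes. Igfbp3, the main IGF carrier of blood, read 15449 ± 1545 in the neurosphere and 11960 ± 1196 in VZ/SVZ by probe a (chromosome 11, 7106193 to 7106252, mm9, minus strand), a difference of -0.46 ± 0.20. Its probe b, at 7107949 to 7108008, was weak, with 10.2 ± 1.52 and 9.73 ± 1.61, or -0.17 ± 0.32. Igfbp4, an inhibitor of IGF action that is cut by pappalysin, read 403 ± 40.3 and 278 ± 27.8 by probe a (chromosome 11, 98913334 to 98913393, mm9, plus strand), or -0.63 ± 0.20. Its probe b, at 98909591 to 98909650, read 216 ± 21.7 and 96.0 ± 9.68, which is 2.41-fold higher in the neurosphere (-1.27 ± 0.21). The brightest probes of these genes were both lower in VZ/SVZ by more than the technical error, and for Igfbp4 the choice of probe decided on which side of 2-fold it fell: the median of its probes was -0.95.

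Igfbp2 and Igfbp5 are neighbours on chromosome 1, with no other gene listed between them in RefSeq's mouse gene table (GRCm38.p6), and they lay on opposite sides of 2-fold. Their probes are on opposite strands, 5769 bases apart at the nearer Igfbp5 probe (mm9). The 250 bases before the start of each are printed with that of Igfbp7, the member that differed most, as RefSeq gives them for GRCm38.p6, 5′ to 3′ on the gene's strand. Capitals mark any of 4 promoter motifs on either strand: the TATA box letters TATAAA, the GC box core GGGCGG, the CCAAT box, and the E-box CACGTG.
Igfbp2 (chr1:72824230-72824479, plus strand, first of 2 listed starts): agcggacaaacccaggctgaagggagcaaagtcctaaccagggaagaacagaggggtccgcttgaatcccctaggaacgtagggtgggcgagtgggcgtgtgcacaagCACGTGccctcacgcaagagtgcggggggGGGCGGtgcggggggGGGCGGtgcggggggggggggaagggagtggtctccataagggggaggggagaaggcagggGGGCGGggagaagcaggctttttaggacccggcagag
Igfbp5 (chr1:72874866-72875115, minus strand): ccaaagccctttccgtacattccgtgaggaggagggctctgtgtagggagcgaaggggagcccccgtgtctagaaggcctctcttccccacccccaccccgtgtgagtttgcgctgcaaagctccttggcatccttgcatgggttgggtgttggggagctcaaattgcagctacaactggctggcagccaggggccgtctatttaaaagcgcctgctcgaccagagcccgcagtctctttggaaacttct
Igfbp7 (chr5:77408046-77408295, minus strand): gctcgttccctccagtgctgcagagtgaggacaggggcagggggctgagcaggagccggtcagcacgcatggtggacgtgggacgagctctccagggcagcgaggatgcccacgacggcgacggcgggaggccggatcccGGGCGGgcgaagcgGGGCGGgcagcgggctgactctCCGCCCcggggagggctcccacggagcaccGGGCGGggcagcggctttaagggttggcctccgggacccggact
The Igfbp2 window held the GC box core 3 times and the E-box once, the Igfbp7 window held the GC box core 4 times, and the Igfbp5 window held none of the 4 motifs. CpG dinucleotides numbered 14 for Igfbp2, 10 for Igfbp5 and 26 for Igfbp7, against a median of 6 over all 32851 windows of this length. All 10 members had at least 1 window, 14 in all, with 1 CpG (the first of 4 Igf2 starts) to 42 (Igf1r). The GC box core stood in 6 of the 14 windows (42.9%) and in 32.7% of all windows, and the CCAAT box in 3 (21.4%) and in 33.8%. The TATA box stood in 2 (14.3%) and in 12.4%, and the E-box in 2 (14.3%) and in 6.02%. The E-box reads the same on both strands and was counted once per place; the other motifs were searched on each strand. The members higher in VZ/SVZ did not share 1 of these motifs: Igf2r, Igfbp7 and 2 of the 4 Igf2 windows held the GC box core, while the Igf1, Igfbp5 and Igfbp6 windows did not.

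Genes that act around the family were read from lists of known roles. Among proteases that cut the binding proteins and the stanniocalcins that restrain pappalysins, 10 of 13 were measured; 7 reached 2-fold towards VZ/SVZ and 1 towards the neurosphere (70% and 10%, beside 18.7% and 11.1% of all genes), and the median was 1.29. The neurosphere signal was dim for 5 of the 10, which counted as measured only through VZ/SVZ. Over probes bright on both arrays, 5 genes were left, 2 past 2-fold towards VZ/SVZ and 1 towards the neurosphere, with a median of 0.63. The shares among all genes bright on both arrays were 14.4% and 11.6%. The matrix metalloprotease genes Mmp3 and Mmp2 had signals of 1.20 and 1.91 in the neurosphere, both dim, and of 6308 and 1280 in VZ/SVZ. Stc1, which encodes stanniocalcin 1, read 189 and 1896 (3.23 ± 0.20), and the protease gene Adam12 was lower in VZ/SVZ, 398 against 118 (-1.85 ± 0.20). Pappa, which encodes the pappalysin that cuts IGFBP4, was dim in the neurosphere, and VZ/SVZ exceeded it by at least 2.48-fold. With normexp or quantile normalization, 4 of the 10 reached 2-fold towards VZ/SVZ, and the list median was 0.41 and 0.83.

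Signalling genes downstream of the IGF1 receptor were called about as often as other genes towards VZ/SVZ. Of 27 measured, 4 (14.8%) lay past 2-fold on the VZ/SVZ side, where the share of all genes was 18.7%, 1 (3.7%) lay past it on the other side, where that share was 11.1%, and 22 lay within; the median was 0.05. Grb10, an adaptor that dampens the receptor and is imprinted, was dim in the neurosphere at 1.17 and read 94.5 in VZ/SVZ, at least 17.0-fold, with another probe at 2.72. Shc1, an adaptor to the Ras pathway, was at 1.99 ± 0.20, and Rictor, a subunit of mTOR complex 2, at 1.44 ± 0.21. Pik3r1, the regulatory subunit of phosphoinositide 3-kinase, was at -1.61 ± 0.20. With normexp 2 of the list reached 2-fold on the VZ/SVZ side.

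The insulin receptor gene Insr stood at 0.04 ± 0.20, close to Igf1r, with another probe at 0.55. Ins2 was at -0.32 ± 0.27, and Ins1 and Insrr were dim in the neurosphere with bounds of 0.26 and 0.37. Igfbp1, Igfals, which encodes the acid-labile partner of circulating IGF complexes, and Igfbpl1 were dim on both arrays. Of the genes for proteins that bind Igf2 mRNA, Igf2bp1 was dim in the neurosphere and at least 5.81-fold higher in VZ/SVZ, Igf2bp3 was 2.06-fold higher there (1.05 ± 0.21), and Igf2bp2 was at -0.47 ± 0.20, with another probe at 0.10. With normexp none of these 3 reached 2-fold.

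Of 6 genes of the growth hormone axis, Ghr, the growth hormone receptor, was 14.3-fold higher in VZ/SVZ (3.84 ± 0.24), with its other probes from 0.41 to 3.69. The other 5 lay within 2-fold, with Jak2 at -0.93, Stat5b at -0.79 (another probe at 0.27) and Stat5a at 0.65. The 4 genes of mannose 6-phosphate sorting, the other role of the IGF2 receptor, all lay within 2-fold, from Gnptg at -0.72 to Gnptab at 0.26 (another probe at -0.35), and the smaller receptor gene M6pr was at -0.33. Over all genes, 29.7% passed 2-fold in either direction (18.7% towards VZ/SVZ), so lying within it was the common case for both lists. Igf2r, at 1.74, lay past 2-fold, and its distance from the 4 sorting genes was not tested.

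**Figure D2:**
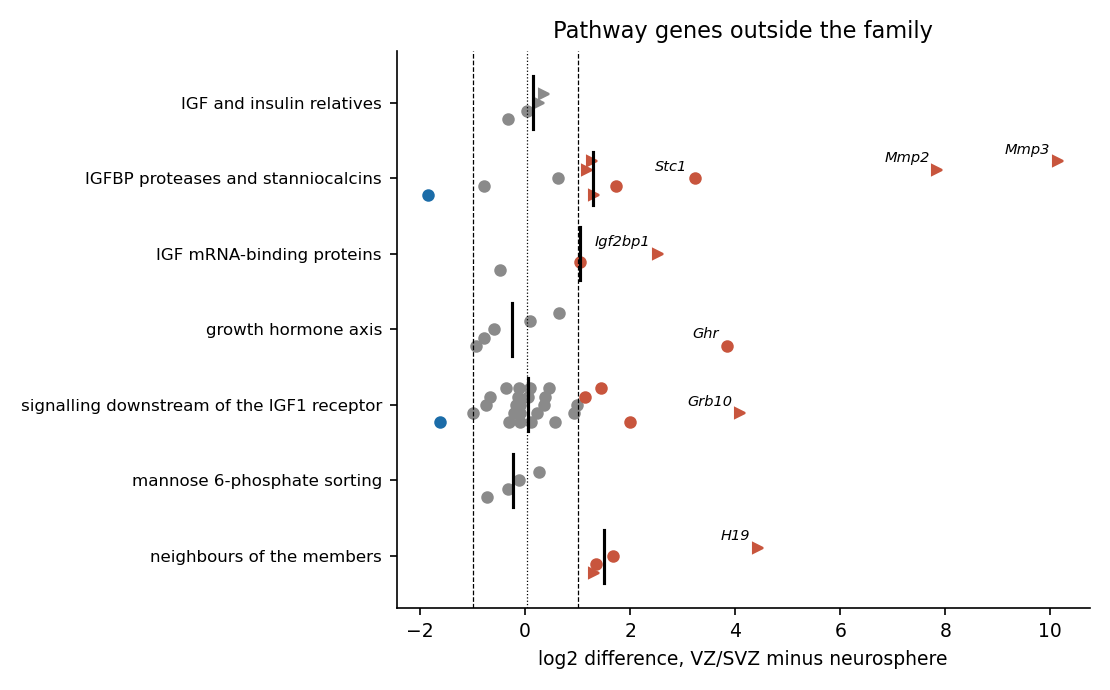
Log2 difference, VZ/SVZ minus neurosphere, of each measured gene in the lists around the family: circles are measured, triangles are bounds, red and blue pass 2-fold (dashed lines) towards VZ/SVZ and the neurosphere, black bars are list medians, and the dotted line is the median of all genes. The 27 downstream signalling genes centre on 0.05, and the protease list centres on 1.29.

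Markers of several other cell types stood higher in VZ/SVZ too; the all-gene shares of 18.7% towards VZ/SVZ and 11.1% towards the neurosphere apply to each list. Of 12 meningeal fibroblast markers, 5 were bright in the neurosphere and 11 in VZ/SVZ; 9 reached 2-fold towards VZ/SVZ and 1 towards the neurosphere, and with normexp 8 and 1 did. The collagen genes Col3a1 and Col1a1 and the proteoglycan gene Dcn, all dim in the neurosphere, had bounds of 9.04, 8.13 and 8.69, although another Col3a1 probe gave 0.91. Slc6a13 was the 1 towards the neurosphere, with 78.0 there and a dim 3.54 in VZ/SVZ (bound -3.81). Ogn at -0.003 ± 0.42 and Slc22a6 at 0.31 ± 0.29 lay within 2-fold. The fibroblast signals summed to 1.65 times the array's 75th percentile in the neurosphere and 108 times in VZ/SVZ. Such sums add different probes, dim ones included, so the brightest probe weighs most and sums of different lists are not comparable. Endothelial markers gave 8 and 1 of 11 (normexp 6 and 1), with sums of 3.04 and 12.7. The 1 towards the neurosphere was Flt1 at -3.13, with other probes from -1.64 to -0.77. Mural markers gave 7 and 0 of 11 (normexp 4 and 0), with sums of 73.1 and 80.6 that 1 Acta2 probe carried; without that gene they were 5.15 and 26.5, and other Acta2 probes gave differences of 3.33 to 4.31 against -0.33 for the brightest. Choroid plexus markers gave 5 and 1 of 8 (normexp 2 and 0), with sums of 1.70 and 11.3, but Ttr, the defining one, was dim on both arrays. Microglial markers gave 3 and 0 of 8 (normexp 0 and 0), with sums of 156 and 179 that 1 Itgam probe carried; without that gene they were 17.0 and 20.3. Another 6 microglial markers, among them Cx3cr1, P2ry12, C1qa and Tyrobp, were dim on both arrays. Neural stem and progenitor markers, which bear on the labelled cells, were all bright on both arrays. Of these 14, 1 reached 2-fold towards VZ/SVZ and 5 towards the neurosphere (normexp 0 and 5). Their sums were 702 and 358, or 278 and 157 without Fabp7. Some probes differed: Gfap was at 0.92 with another probe at 5.13, and Slc1a3 at -3.90 with others from -0.25 to 0.74. Egfr was at -1.69 with others from -1.48 to 0.46, and Pax6 at 0.32 with others from -2.12 to -0.71. Ependymal markers gave 0 and 3 of 8 (normexp the same), with sums of 12.1 and 4.44. A marker dim in the neurosphere counted as measured only through VZ/SVZ. Over probes bright on both arrays, the counts were 2 and 0 of 4 for fibroblast and 3 and 1 of 5 for endothelial markers. They were 3 and 0 of 6 for mural, 3 and 1 of 6 for choroid plexus and 1 and 0 of 5 for microglial markers. Ependymal markers gave 0 and 2 of 6 there, and neural ones 1 and 5 of 14. The shares among all such genes were 14.4% and 11.6%. The part of these cell types in the values of Igf1, Igf2, Igf2r, Igfbp2, Igfbp5, Igfbp6 and Igfbp7 was not tested.

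**Figure D3:**
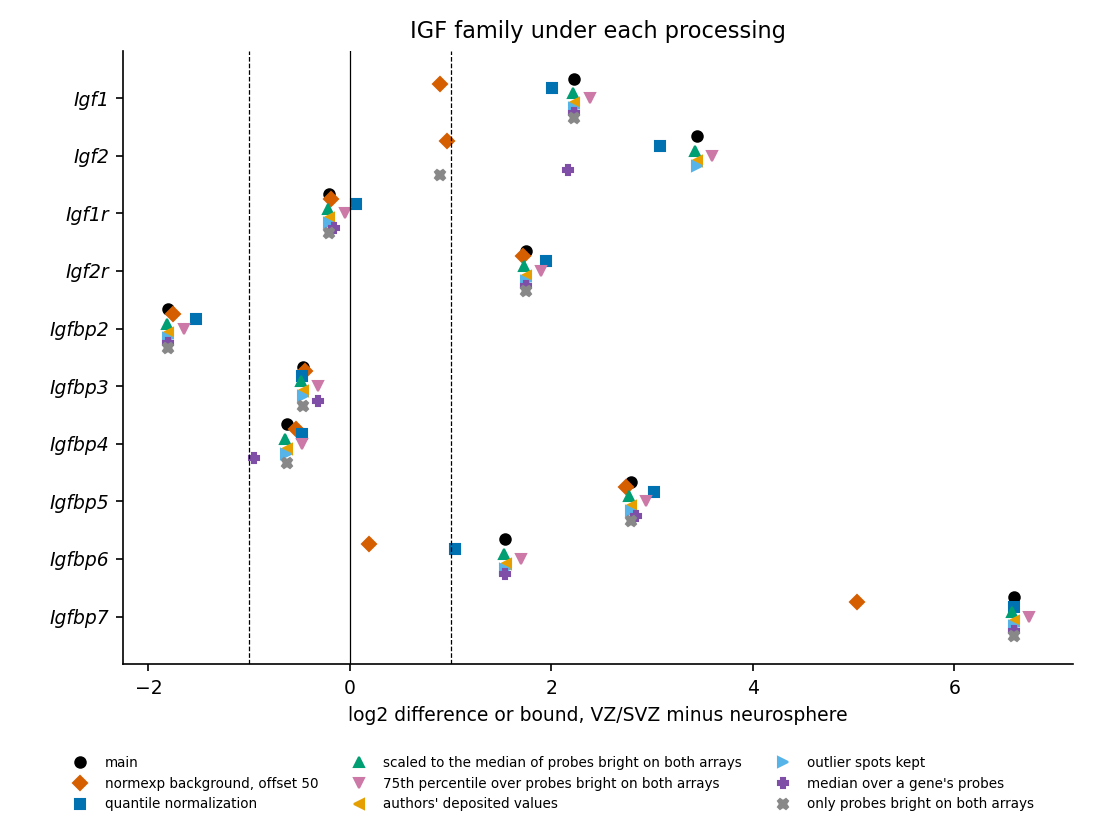
Log2 difference or bound of each member, VZ/SVZ minus neurosphere, under 9 ways of processing (a marker each), with dashed lines at 2-fold. Igf2r, Igfbp2, Igfbp5 and Igfbp7 stay past 2-fold under all 9, while Igf1, Igf2 and Igfbp6 come within 2-fold with normexp and Igf2 also over probes bright on both arrays; Igfbp6 has 8 markers.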

How the data were processed

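Cy3-labelled total RNA of 2 samples was hybridised to Agilent one-colour arrays, 1 array per group, with groups taken from the sample titles. The authors deposited spot intensity values from the scanner software; per the file headers it was Feature Extraction 11.5.1.1, run under GE1_1105_Oct12, whereas the submitters' processing notes name version 9.1. Processed signals are background-subtracted and not scaled between arrays, per the file headers. Control and outlier spots were left out, and log2 signals were set against the 75th percentile of each array (99.4 and 106 in signal). The lowest signal well above background was 5.20 in the neurosphere and 5.93 in VZ/SVZ; a probe that the software marked as not well above background, which Igfbp6 was at 5.84, gave a bound set at this signal or its own, whichever was higher, and having 1 array per group limits the precision. No family probe was saturated or marked as an outlier, and each was printed once.

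A gene took its brightest probe among those well above background on at least 1 array. Of 56599 probes, 32991 were named through RefSeq accessions, 10222 by symbol, 520 by synonym, and 12866 kept the file's name. Members kept the file's gene name. No reference genome was used, so exons were not assigned. Which transcript part a probe reads was not analysed here.

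The members and lists were chosen with earlier results of these data known. Named genes are all members, up to 4 of each pathway list with the largest difference, and all insulin and IGF relatives. The rule also allowed 3 of each cell-type list, and all 3 are named for fibroblasts alone. Pappa, Acta2, Itgam and the dim cell-type markers were named after their values were seen. So were Slc6a13, Ogn, Slc22a6, Flt1, Fabp7, Gfap, Slc1a3, Egfr and Pax6. The alternatives were normexp with an offset of 50 (limma 3.58.1, R 4.3.3), quantile normalization, 2 other scalings, the deposited value table (linear intensity, not centred, equal at the median to the scanner's processed signal on both arrays, with column medians of 12.95 and 18.55), outlier spots kept, the median over probes, probes bright on both arrays, and a 4-fold threshold. The steps were tested on simulated data.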

Additional observations from a re-analysis of the deposited data

How the results depend on the processing

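No paired analysis was possible because each group has 1 array. With normexp, 3 members in place of 6 reached 2-fold towards VZ/SVZ, and the family's median was 0.54 in place of 1.64; among all genes 1470 in place of 4934 did so, and 1268 in place of 2927 towards the neurosphere. The added offset of 50 is large beside weak signals and shrinks their differences by construction. Over probes bright on both arrays the family's median was 0.90, with 9 members left and 4 of them past 2-fold towards VZ/SVZ. At 4-fold, 0 members lay on the neurosphere side and 4 on the other. Scaling to the 75th percentile of probes bright on both arrays moved the median of all genes to 0.19, and every member's difference moved up with it. That scaling, quantile normalization, scaling to the median, the authors' values, kept outlier spots and the median over probes each left 6 members past 2-fold towards VZ/SVZ and 1 towards the neurosphere. Weak or dim neurosphere signals limit the values of Igf1, Igf2, Igfbp6 and Igfbp7. Of these, Igfbp7 stayed past 2-fold with normexp, at 5.04 in place of 6.59.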

Other observations

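Chromosomal neighbours of members were read from a short list. Of 6 genes, 4 were measured, 3 of them beside the imprinted Igf2 and Igf2r and 1 beside Igfbp2 and Igfbp5. All 4 reached 2-fold towards VZ/SVZ, beside 18.7% of all genes. With normexp 2 of the 4 did, and with quantile normalization 3. H19 and Tnp1 were dim in the neurosphere and counted as measured only through VZ/SVZ. Over probes bright on both arrays 2 genes were left, both past 2-fold, beside 14.4% of all such genes. A link between neighbours was not tested. H19, the noncoding RNA gene beside Igf2 that is expressed from the maternal allele, was dim in the neurosphere and read 120 in VZ/SVZ, at least 21.6-fold higher, with another probe at 2.89. Airn, a noncoding RNA transcribed from within Igf2r on the other strand, was 2.54-fold higher in VZ/SVZ (1.34 ± 0.20), but its other probes ran from -0.42 to 1.54. Slc22a3, a transporter gene of the same cluster, was 3.18-fold higher in VZ/SVZ (1.67 ± 0.23). Tnp1, near Igfbp2 and Igfbp5 and not imprinted, was dim in the neurosphere and at least 2.49-fold higher in VZ/SVZ. Arrays of total RNA do not read which allele a transcript came from.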
